A study of Homo sapiens with 6 samples.

Results

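The genes described here build the junctions and the apical-basal polarity of an epithelial sheet. They are 31 genes listed by name, with no cut on measured values, but chosen with earlier results of these data known. The list holds 16 genes of the tight junction, 6 of the polarity complexes, 8 of the desmosome, and EPCAM. EPCAM, an adhesion protein that stabilizes claudin-7, was counted in the total and in none of the classes. All 31 were found by symbol among the 58884 Ensembl genes of the count table, and all 31 passed the filter on low counts that left 16059 genes for the test. Their RNA was measured in DLD1 cells, a human colorectal adenocarcinoma line that carries a helical domain mutation of PIK3CA, in 3 libraries of parental cells and 3 libraries of p85β KR-AA cells. The latter carry the knocked-in changes K477A and R478A of p85β (gene PIK3R2), which replace 2 basic residues of its predicted nuclear localization sequence by alanine, and the labels name no treatment of either group. The study describes 2 independently derived knock-in clones, and the labels do not say which clone gave which library or whether libraries came from separate cultures, so that p-values measure the spread between these libraries, which may be technical. The title and genotype of all 3 mutant libraries name R478A, while the source names of replicates 2 and 3 read R479A and R480A, and gene counts cannot show the knocked-in bases.

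Tight junctions seal the space between epithelial cells. Their strands are made of claudins, some of which close the space and some of which form ion pores, together with occludin and related MARVEL-domain proteins, and the ZO scaffolds tie them to actin. The Crumbs, PAR and Lethal giant larvae proteins set up the apical and basolateral domains around this belt, and desmosomes are spot-like contacts in which desmosomal cadherins are linked through plakoglobin, plakophilins and desmoplakin to keratin filaments.

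Compared to the parental cells, the mutant cells up-regulated 11 of the 31 genes and down-regulated 9, where a call needed 3-fold or more and an adjusted p below 0.01 (quasi-likelihood F test of edgeR, Benjamini-Hochberg over every gene tested). Of all genes tested, 28.6% were up-regulated and 17.6% down-regulated, against 35.5% and 29.0% of these 31. In CPM (counts relative to library size, TMM scaling), every mutant library lay above every parental library for 13 of the genes and below for 15, and 3 overlapped, where 47% and 36.5% of all genes tested lay above and below. In TPM, counts are divided by gene length and every library is scaled to the same total, without TMM. On that scale CLDN2, F11R, JUP, EVPL and EPCAM, all below in CPM, lay above instead. CLDN15, CGN and PPL, which overlapped in CPM, also lay above in TPM, and CLDN23 overlapped. A gene has the same length in every library, so these differences between CPM and TPM come from library scaling. The shares of all genes tested that lay above and below in TPM were not computed. The up-regulated genes were CLDN1, CLDN12, OCLN and TJP1 of the tight junction, PALS1, PATJ and PARD6B of the polarity complexes, and DSG2, DSC2, PKP2 and DSP of the desmosome. The down-regulated ones were CLDN3, CLDN4, CLDN7, MARVELD3, LSR and TJP3 of the tight junction, CRB3 and LLGL2 of the polarity complexes, and PKP3 of the desmosome. Within each class, genes were therefore found on both sides: 4 up and 6 down of 16 in the tight junction class, 3 up and 2 down of 6 in the polarity class, and 4 up and 1 down of 8 in the desmosome class. The median log2 fold change was -0.77, 1.81 and 0.60 in these classes and -0.51 over the 31 genes, against 0.32 over all genes tested.

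These counts rest on TMM scaling, which sets library sizes by the bulk of the genes and underlies the CPM values given here (counts relative to library size), and they moved with gene length and GC content. Scaling by library totals alone shifted the median log2 fold change of all genes from 0.32 to 1.24. It gave 13 genes up-regulated and 2 down-regulated (CLDN3 and PKP3) of the 31, beside 43.9% and 6.06% of all genes. In parental libraries 9.49% to 12.1% of counts fell on genes of over 4000 bases, and in mutant libraries 27.7% to 28.9%. When offsets for length and GC composition entered the model, 2 of the 31 were up-regulated (CLDN1 and CLDN15) and 1 was down-regulated (F11R), beside 17.8% and 6.54% of all genes. Such offsets take out every relation between counts and these properties of a gene, of any source. The values with offsets are given beside those of the 31 genes, and what lies behind the relation with length and GC content was not tested.

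**Figure D1:**
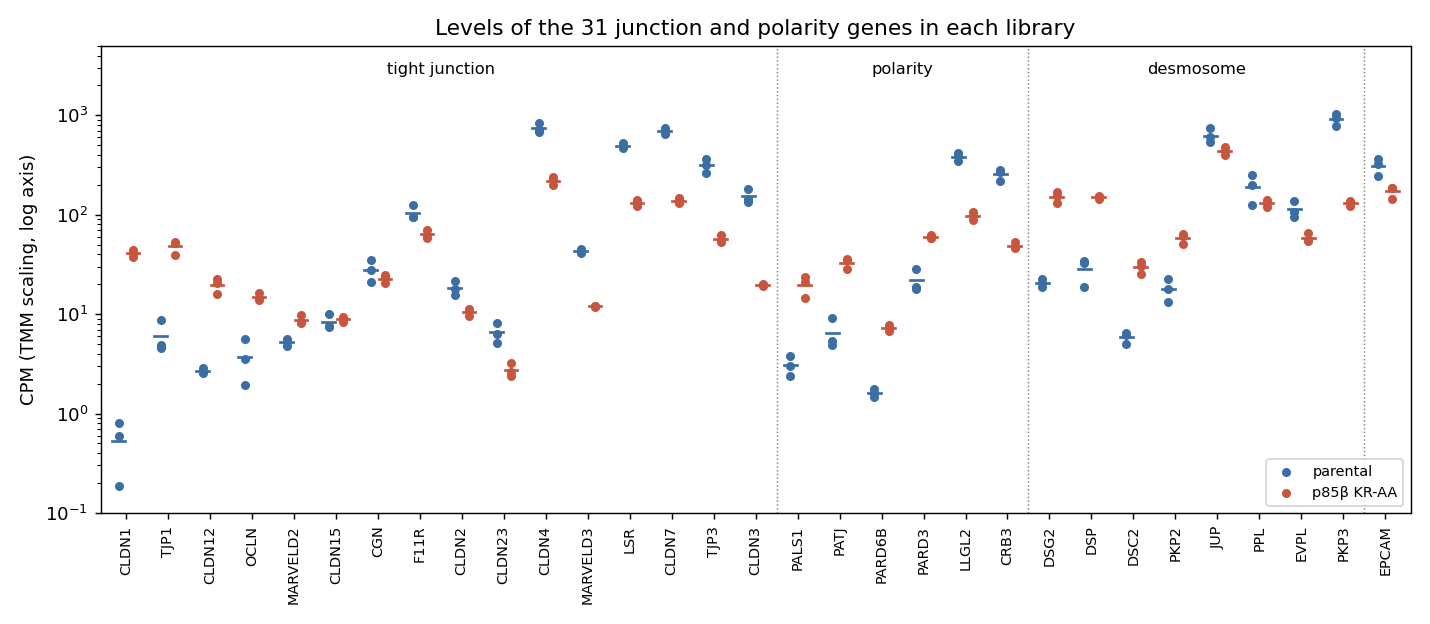
Each point is the CPM of 1 library (count relative to library size after TMM scaling, log axis) for each gene, in parental and p85β KR-AA cells, with the mean of each group as a line; genes are ordered by fold change within the classes. On this scale CLDN1 shows the widest gap, 0.185 to 0.801 CPM in parental against 38.0 to 44 CPM in mutant libraries, while most of the abundant parental genes are lower in the mutant libraries. With length and GC offsets the log2 fold change is 0.02 for LSR and 0.08 for CRB3 (SE 0.08 each), and the difference is reduced for CLDN4 and CLDN7.

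In depth, the libraries held 20301932 to 20873475 counts in parental and 20301396 to 26712816 counts in mutant cells. A total of 3 counts, taken as the limit of detection, was worth 0.185 to 0.218 CPM in parental and 0.0818 to 0.109 CPM in mutant libraries, counting error only. Of 11 markers of colon epithelium, 10 were over 1 CPM in every parental and 8 in every mutant library. Of the 10 tested, 2 were up-regulated (CDH17, log2 fold change 2.1, and CDH1, 1.82) and 6 were down-regulated (LGALS4, KRT8, KRT18, KRT19, CDX2 and VIL1, -3.17 to -1.66), and their summed level was 56905 to 78902 CPM in parental and 8628 to 10168 CPM in mutant libraries. These counts and those of the lists below stand beside 28.6% up-regulated and 17.6% down-regulated of all genes tested. With the length and GC offsets CDH17 was at 1.35 and CDH1 at 0.96, both under 3-fold. The 6 lower markers then lay between -3.47 (VIL1) and -0.55 (KRT19), and only VIL1 and KRT8 (-1.61) passed 3-fold. CDX1 was at no more than 3 counts in any library. Of 12 mesenchymal markers, 7 were up-regulated and their summed level went from between 7.72 and 10.3 CPM to between 6320 and 7233 CPM, mostly FN1 and VIM, while COL1A2, PDGFRA and THY1 stayed at no more than 3 counts in each mutant library. Of 10 neuron markers 3 were up-regulated (NEFL, NEFM and MAP2), NEFL from no count in parental libraries to 130.2 to 133.8 CPM, while DCX and ELAVL4 were at 0 in every library. Their summed level, mostly TUBB3 in parental cells (a mean of 561.4 CPM, against 210.9 CPM in mutant cells), was between 522.0 and 610.1 CPM in parental and between 342.5 and 365.0 CPM in mutant libraries. Of 7 markers of stratified epithelium 3 were down-regulated, with a sum of 46.5 to 75.7 CPM in parental and 8.38 to 12.2 CPM in mutant libraries, and TP63 and KRT1 had at most 3 counts. Of endothelial markers 1 was up- and 1 down-regulated, and they summed to at most 3.08 CPM in any library (PECAM1 was not matched). In bulk RNA, fewer cells of a type and less RNA per cell cannot be told apart, and the part of these differences in the junction genes was not tested.

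The claudins are shown first by the 250 bases before the start of the 5 genes that passed the thresholds, since these neighbors in function moved in opposite directions. The sequences are those of RefSeq on GRCh38.p14, written 5′ to 3′ on the strand of the gene, with matches to CAGGTG or its reverse complement CACCTG (an E-box, the element bound by SNAIL and ZEB factors) and to GGGCGG or CCGCCC (a GC box) in capitals. CLDN1 is at chr3:190322447-190322696 on the minus strand, CLDN12 at chr7:90403211-90403460 on the plus strand, CLDN3 at chr7:73770271-73770520 on the minus strand, CLDN4 at chr7:73830746-73830995 on the plus strand and CLDN7 at chr17:7263214-7263463 on the minus strand.
CLDN1: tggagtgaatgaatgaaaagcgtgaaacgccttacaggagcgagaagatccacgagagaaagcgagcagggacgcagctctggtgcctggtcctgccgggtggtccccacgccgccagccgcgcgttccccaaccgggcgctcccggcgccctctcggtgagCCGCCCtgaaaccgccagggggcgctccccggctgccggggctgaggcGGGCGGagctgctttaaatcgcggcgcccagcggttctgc
CLDN12: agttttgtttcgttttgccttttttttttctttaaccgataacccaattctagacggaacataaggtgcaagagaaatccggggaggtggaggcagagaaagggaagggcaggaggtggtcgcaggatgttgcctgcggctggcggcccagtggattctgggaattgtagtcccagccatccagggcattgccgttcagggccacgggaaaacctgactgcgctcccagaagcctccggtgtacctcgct
CLDN3: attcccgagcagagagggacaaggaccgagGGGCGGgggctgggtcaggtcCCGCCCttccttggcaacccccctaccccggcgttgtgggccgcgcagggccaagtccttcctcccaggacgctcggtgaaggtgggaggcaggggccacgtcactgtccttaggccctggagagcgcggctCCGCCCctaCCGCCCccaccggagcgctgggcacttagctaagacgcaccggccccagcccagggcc
CLDN4: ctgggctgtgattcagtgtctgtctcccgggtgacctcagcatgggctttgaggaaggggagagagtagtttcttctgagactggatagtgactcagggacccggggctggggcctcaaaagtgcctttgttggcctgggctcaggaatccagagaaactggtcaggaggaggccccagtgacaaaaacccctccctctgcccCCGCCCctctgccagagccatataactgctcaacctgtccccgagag
CLDN7: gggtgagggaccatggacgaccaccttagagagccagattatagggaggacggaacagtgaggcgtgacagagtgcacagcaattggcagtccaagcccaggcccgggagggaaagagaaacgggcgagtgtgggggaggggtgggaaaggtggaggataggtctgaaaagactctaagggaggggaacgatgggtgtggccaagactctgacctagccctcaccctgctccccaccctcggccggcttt
None of these 5 windows held the E-box, which 17.5% of the 35116 windows in the table held. The GC box, held by 42.6% of all windows, was found 2 times in CLDN1, 4 times in CLDN3 and once in CLDN4, and in neither CLDN12 nor CLDN7.

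CLDN1, a sealing claudin, had the largest fold change of the 31 genes on every scale used. Its gene (ENSG00000163347) lies on chromosome 3, 190023496 to 190040235 of GRCh37, on the minus strand. Its estimated counts were 9, 11 and 3 in the parental libraries, close to the limit of detection, and 1614, 1199 and 1043 in the mutant libraries. The log2 fold change, mutant over parental, was 6.31 (SE, standard error, 0.30, adjusted p = 4.63e-09 by edgeR), 7.24 with library totals and 5.09 (SE 0.26) with the length and GC offsets. CLDN12, a claudin without the usual PDZ-binding end, had 2.59, 2.55 and 2.90 CPM in parental and 22.6, 20.4 and 15.9 CPM in mutant libraries. Its log2 fold change was 2.87 (SE 0.21, adjusted p = 7.25e-08, edgeR) and 1.47 with the offsets, under 3-fold. CLDN12 overlaps GTPBP10 on the same strand, which had means of 81.7 and 237.1 counts.

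CLDN3 and CLDN4, both sealing claudins, lie close to each other on chromosome 7 of GRCh37, CLDN3 (ENSG00000165215) from 73183327 to 73184600 and CLDN4 (ENSG00000189143) from 73213872 to 73247020. CLDN3 had 144.1, 182.6 and 135.8 CPM in parental libraries and 20.2, 19.5 and 19.0 CPM in mutant libraries, and the log2 fold change was -2.98 (SE 0.15, adjusted p = 5.96e-09, edgeR). The groups were far apart, yet with the offsets the log2 fold change was -0.32 (SE 0.09). CLDN4 had 840.9, 706.6 and 684.4 CPM in parental and 222.5, 199.7 and 238.3 CPM in mutant libraries, a log2 fold change of -1.76 (SE 0.14, adjusted p = 9.71e-08) that was -0.83 with library totals and -0.22 with the offsets. CLDN7, the claudin that partners with EPCAM, had 688.4, 741.6 and 643.5 CPM in parental and 133.2, 131.2 and 146.7 CPM in mutant libraries, a log2 fold change of -2.33 (SE 0.13, adjusted p = 7.97e-09). It was -0.44 with the offsets, and ELP5, which overlaps CLDN7 on the opposite strand, had means of 1651 and 753.0 counts. How reads shared by overlapping genes were assigned, and whether strand was used, is not given in the sources used here.

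The other claudins did not pass the thresholds. CLDN2, which forms a cation pore, had a log2 fold change of -0.80, turning to 0.12 with library totals and -0.38 with the offsets. CLDN15, another pore-forming claudin, had 10.1, 7.43 and 7.65 CPM in parental and 9.30, 8.98 and 8.34 CPM in mutant libraries, which overlapped. Its log2 fold change was 0.08 (SE 0.19) and 1.73 (SE 0.16, adjusted p = 2.71e-06) with the offsets, where it joined CLDN1 as the other up-regulated gene. CLDN23 had a log2 fold change of -1.27, turning to 0.39 with the offsets.

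Shares of the claudins' summed TPM (counts per base of the deposited length, scaled to 1e6 in all) do not depend on how libraries are scaled against each other. They still carry the relation of the counts with length and GC content. CLDN7, CLDN4 and CLDN3 made up nearly all of the parental claudin RNA, with 45.3% ± 1.92, 41.0% ± 3.38 and 12.2% ± 1.59 (SD, n = 3). In the mutant libraries their shares were 35.4% ± 0.995, 47.9% ± 1.55 and 6.14% ± 0.446. CLDN1 went from 0.0151% ± 0.00854 to 4.79% ± 0.536, and CLDN12 from 0.0771% ± 0.011 to 2.23% ± 0.462. Only the share of CLDN23 overlapped between the groups (0.23% to 0.414% in parental and 0.413% to 0.625% in mutant libraries). In CPM, 47% and 36.5% of all genes tested lay wholly above and wholly below in the mutant libraries. The summed claudin level was 906.6 to 1054 TPM in parental and 632.2 to 669.1 TPM in mutant libraries.

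Of the other strand proteins, OCLN (occludin) had 1.93, 3.50 and 5.68 CPM in parental and 13.8, 16.4 and 14.3 CPM in mutant libraries. The parental libraries spread widely, and the log2 fold change was 1.99 (SE 0.30, adjusted p = 4.24e-05, edgeR), against -0.17 with the offsets. MARVELD2 (tricellulin, of the tricellular junction) did not pass the fold threshold, with a log2 fold change of 0.76 that was 1.68 with library totals and -0.62 with the offsets. MARVELD3, the third MARVEL-domain protein of the junction, had 42.6, 40.9 and 45.4 CPM in parental and 12.2, 11.8 and 12.2 CPM in mutant libraries, a log2 fold change of -1.83 (SE 0.15, adjusted p = 1.31e-07). It remained lower with the offsets, at -1.22 (SE 0.10, adjusted p = 1.54e-06), though under 3-fold. PHLPP2 overlaps MARVELD3 on the opposite strand, with means of 33.2 and 392.1 counts.
LSR, an angulin of the tricellular junction, had 531.8, 466.4 and 477.2 CPM in parental and 129.9, 123.0 and 141.6 CPM in mutant libraries, and its log2 fold change of -1.90 (SE 0.13, adjusted p = 2.89e-08, edgeR) became 0.02 with the offsets. F11R (JAM-A, an adhesion molecule of the immunoglobulin family) had 95.0, 94.7 and 125.8 CPM in parental and 62.2, 58.0 and 70.5 CPM in mutant libraries. Its log2 fold change was -0.73, it turned to 0.19 with library totals, and it was -1.62 (SE 0.10, adjusted p = 1.70e-07) with the offsets, which made F11R the sole down-regulated gene of that fit. These values are uncertain, because ENSG00000270149 overlaps F11R on the same strand and took means of 1286 and 1921 counts.

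Among the cytoplasmic scaffolds the ZO paralogs went opposite ways. TJP1 (ZO-1; ENSG00000104067, chromosome 15, 29991571 to 30261118 of GRCh37) had 4.85, 4.59 and 8.70 CPM in parental and 52.5, 53.5 and 39.5 CPM in mutant libraries, a log2 fold change of 3.0 (SE 0.24, adjusted p = 1.63e-07, edgeR). TJP3 (ZO-3; ENSG00000105289, chromosome 19, 3708360 to 3750811) had 364.3, 315.7 and 262.4 CPM in parental and 54.5, 53.4 and 61.9 CPM in mutant libraries, a log2 fold change of -2.47 (SE 0.15, adjusted p = 1.56e-08). With the offsets both kept their direction, at 1.22 (SE 0.18) for TJP1 and -0.93 (SE 0.08) for TJP3, under 3-fold. TJP3 overlaps APBA3 on the opposite strand, which had means of 1417 and 486.9 counts. CGN (cingulin) overlapped between the groups, with 34.9, 20.9 and 27.7 CPM in parental and 20.7, 22.9 and 24.9 CPM in mutant libraries, and its log2 fold change of -0.29 was 0.63 with library totals and -0.11 with the offsets.

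Among the polarity genes, the members of the Crumbs complex went apart under TMM scaling. With the offsets the log2 fold changes of CRB3, PALS1 and PATJ were 0.08, 0.63 and 0.16. The 250 bases before PALS1 (chr14:67241185-67241434 on the plus strand, GRCh38.p14) and CRB3 (chr19:6464021-6464270 on the plus strand) are shown because these are the up- and down-regulated polarity genes with the largest fold changes, with capitals as above.
PALS1: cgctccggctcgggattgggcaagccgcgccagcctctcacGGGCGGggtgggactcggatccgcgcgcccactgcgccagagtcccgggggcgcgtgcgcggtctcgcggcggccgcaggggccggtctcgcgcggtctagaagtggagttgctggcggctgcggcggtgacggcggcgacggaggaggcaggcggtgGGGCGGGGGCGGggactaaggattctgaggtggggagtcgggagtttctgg
CRB3: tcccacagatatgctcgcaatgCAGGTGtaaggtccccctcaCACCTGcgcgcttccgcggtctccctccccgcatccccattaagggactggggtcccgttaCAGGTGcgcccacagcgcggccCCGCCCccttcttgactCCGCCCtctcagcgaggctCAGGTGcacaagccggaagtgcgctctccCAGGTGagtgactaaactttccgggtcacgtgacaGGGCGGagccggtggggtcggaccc
CRB3 held the E-box 5 times, the most of the 20 genes of the list whose window was used, and PALS1 did not hold it. E-boxes were found in 6 of 9 up-regulated, 1 of 6 down-regulated and 0 of 5 other genes whose window was used, beside 17.5% of all windows. This is a description of these letters in these windows, split by the calls under TMM scaling. With the length and GC offsets, CLDN1, which held no E-box, was the only 1 of these up-regulated genes to stay called. Whether the element bears on the levels was not tested.

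CRB3 (Crumbs3, the apical transmembrane determinant) had 267.1, 283.4 and 218.5 CPM in parental and 47.4, 46.4 and 53.3 CPM in mutant libraries, a log2 fold change of -2.39 (SE 0.14, adjusted p = 1.35e-08, edgeR). With a deposited length of 733 bases it is the shortest of the 31 genes, and its log2 fold change with the offsets was 0.08 (SE 0.08). It overlaps SLC25A23 and DENND1C on the opposite strand, with means of 1403 and 498.2 counts in parental and 2037 and 378.8 counts in mutant libraries. PALS1, the scaffold that binds Crumbs3, had 2.39, 2.99 and 3.82 CPM in parental and 21.2, 23.6 and 14.4 CPM in mutant libraries, a log2 fold change of 2.68 (SE 0.25, adjusted p = 5.75e-07) that was 0.63 with the offsets, and ATP6V1D overlaps it on the opposite strand, with means of 136.0 and 812.1 counts. PATJ, the partner of PALS1, had 4.85, 5.39 and 9.07 CPM in parental and 35.8, 34.9 and 28.4 CPM in mutant libraries, a log2 fold change of 2.35 (SE 0.23, adjusted p = 9.56e-07) that was 0.16 with the offsets. Neither group overlapped the other for these 3 genes.

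In the PAR complex, PARD6B, the adaptor of atypical protein kinase C, had 1.59, 1.75 and 1.48 CPM in parental and 7.36, 7.80 and 6.74 CPM in mutant libraries, a log2 fold change of 2.18 (SE 0.23, adjusted p = 1.41e-06, edgeR) that was 0.46 with the offsets. PARD3, the scaffold of the complex, was at 18.1, 18.7 and 28.7 CPM in parental and 58.6, 58.0 and 62.4 CPM in mutant libraries. Its log2 fold change of 1.45 (SE 0.18) lay just under the threshold of 1.58, which it passed without parental replicate 3 (1.66) and with library totals (2.36), and the value was 0.21 (SE 0.13, adjusted p = 0.182, edgeR) with the offsets. LLGL2, the basolateral determinant, had 420.2, 388.9 and 343.8 CPM in parental and 97.9, 87.9 and 106.5 CPM in mutant libraries, a log2 fold change of -1.98 (SE 0.14, adjusted p = 3.68e-08) that was -0.59 (adjusted p = 4.33e-05) with the offsets.

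In the desmosome, both cadherins were up-regulated. The 250 bases before DSG2 (chr18:31497927-31498176 on the plus strand, GRCh38.p14), the desmosome gene with the largest increase, are shown with capitals as above and held the E-box 2 times and the GC box 2 times.
DSG2: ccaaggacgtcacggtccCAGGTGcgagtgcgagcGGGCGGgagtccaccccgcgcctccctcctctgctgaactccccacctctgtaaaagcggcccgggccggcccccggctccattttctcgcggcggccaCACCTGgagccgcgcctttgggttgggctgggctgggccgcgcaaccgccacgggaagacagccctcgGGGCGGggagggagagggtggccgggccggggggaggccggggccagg
DSG2 (desmoglein 2, the general desmoglein of simple epithelia; ENSG00000046604, chromosome 18, 29078140 to 29128971 of GRCh37) had 18.6, 20.6 and 22.8 CPM in parental and 153.9, 171.4 and 130.3 CPM in mutant libraries. The log2 fold change was 2.88 (SE 0.15, adjusted p = 7.54e-09, edgeR) and 0.92 (SE 0.09) with the offsets. DSC2 (desmocollin 2), which lies on the same chromosome from 28638806 to 28682485, had 5.05, 6.12 and 6.48 CPM in parental and 30.2, 33.4 and 25.1 CPM in mutant libraries, a log2 fold change of 2.33 (SE 0.19, adjusted p = 1.43e-07) that turned to -0.51 with the offsets. At 12325 bases DSC2 has the longest deposited length of the 31 genes.

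Of the armadillo proteins, PKP2 and PKP3 went opposite ways. PKP2 (plakophilin 2) had 13.4, 18.1 and 22.5 CPM in parental and 63.6, 61.7 and 51.1 CPM in mutant libraries, a log2 fold change of 1.71 (SE 0.19, adjusted p = 3.05e-06, edgeR) that fell under the threshold without parental replicate 1 (1.52) and was 0.78 with the offsets. PKP3 (plakophilin 3; ENSG00000184363, chromosome 11, 392614 to 404908 of GRCh37) had 942.1, 1024 and 790.3 CPM in parental and 135.5, 121.9 and 136.1 CPM in mutant libraries, a log2 fold change of -2.81 (SE 0.14, adjusted p = 5.96e-09). It was -1.88 with library totals and -1.02 (SE 0.09) with the offsets, the same direction on all 3 scales. JUP (plakoglobin, shared with adherens junctions) did not pass the fold threshold, with 740.9, 537.0 and 603.5 CPM in parental and 437.9, 396.2 and 484.2 CPM in mutant libraries. Its log2 fold change was -0.51, but 0.41 with library totals and 0.81 (SE 0.09) with the offsets.

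Of the plakins, DSP (desmoplakin, which anchors keratin filaments) had 32.4, 18.8 and 34.2 CPM in parental and 154.7, 150.4 and 142.5 CPM in mutant libraries, a log2 fold change of 2.39 (SE 0.20, adjusted p = 1.83e-07, edgeR) that was 0.65 with the offsets. PPL (periplakin) overlapped between the groups, with 249.7, 126.5 and 197.1 CPM in parental and 129.9, 120.0 and 141.9 CPM in mutant libraries, and its log2 fold change was -0.55, 0.36 with library totals and -0.28 with the offsets. EVPL (envoplakin) had 138.2, 95.3 and 106.0 CPM in parental and 55.1, 54.8 and 65.8 CPM in mutant libraries, and its log2 fold change of -0.95 (SE 0.16) was under the fold threshold and -0.29 with the offsets. As a share of the summed TPM of the 8 desmosome genes, PKP3 went from 56.1% ± 5.99 to 17.1% ± 0.37, JUP from 33.6% ± 3.96 to 50.3% ± 2.63, DSG2 from 0.631% ± 0.122 to 9.84% ± 1.82 and DSP from 0.508% ± 0.165 to 5.66% ± 0.442 (SD, n = 3). These shares, too, carry the relation with length and GC content.

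EPCAM had 248.0, 362.8 and 327.6 CPM in parental and 184.8, 185.3 and 145.7 CPM in mutant libraries. In CPM the groups did not overlap and the mutant libraries were lower, while in TPM the mutant libraries were all higher (245.5 to 330.1 against 168.6 to 236.9 TPM). The log2 fold change of -0.86 (SE 0.16, adjusted p = 2.66e-04, edgeR) was under the fold threshold. It was 0.07 with library totals and -0.93 (SE 0.11) with the offsets.

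Levels of different genes were compared per length, in TPM. In parental cells the order began with CLDN7 (444.9 ± 16.2 TPM), CLDN4 (405.4 ± 63.3), CRB3 (346.0 ± 24.4) and PKP3 (322.6 ± 18.5) (SD, n = 3), in which each neighbor lay within the SDs of the next. It ended with DSC2 (0.476 ± 0.0824 TPM), PARD6B (0.348 ± 0.00884) and CLDN1 (0.147 ± 0.0783). In mutant cells JUP (355.6 ± 25.9 TPM), CLDN4 (311.5 ± 18.8), EPCAM (297.8 ± 45.7) and CLDN7 (230.4 ± 9.14) led, of which JUP and CLDN4, and CLDN4 and EPCAM, lay within their SDs of each other. CLDN1, last of 31 in parental cells, was at 31.1 ± 2.78 TPM and 16th in mutant cells, and the last was CLDN23 (3.26 ± 0.614 TPM).

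The balance between related genes was compared as the log2 ratio of TPM within each library, which is independent of the scaling between libraries but not of length or GC content. The pairs were chosen with results of these data known. For all 15 pairs computed the exact two-sided permutation test of 3 against 3 libraries gave p = 0.1, the smallest it can give. Adjustment over the pairs leaves 0.1, and no pair overlapped between the groups. Most single genes separated as well: in CPM 47% of all genes tested lay wholly above and 36.5% wholly below in the mutant libraries. No share was computed for other gene pairs, so this count shows nothing particular to the pairs chosen. TJP3 exceeded TJP1 by 173.0, 157.0 and 69.0 times in parental libraries and by 2.38, 2.29 and 3.59 times in mutant libraries. PKP3 exceeded PKP2 by 52.8 to 106.0 times in parental and by 2.97 to 4.01 times in mutant libraries. The mutant-minus-parental difference of the log2 ratio was 5.52 for TJP1 to TJP3 and 4.54 for PKP2 to PKP3, and the difference of their log2 fold changes with the offsets was 2.15 and 1.79. For CLDN1 to CLDN3 these values were 9.50 and 5.41, and for PARD6B to its paralog PARD6A, which is no member, 5.71 and 1.70. In contrast, PALS1 to CRB3 differed by 5.06 in the log2 ratio but by 0.55 with the offsets, PATJ to CRB3 by 4.79 and 0.08, DSG2 to JUP by 3.38 and 0.11, and CLDN4 to CLDN3 by 1.21 and 0.09. DSC2 to DSG2 went the other way, with a log2 ratio of -2.93 ± 0.06 in parental and -3.47 ± 0.01 in mutant libraries (SD, n = 3), a difference of -0.54 that was -1.44 with the offsets.

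The up- and down-regulated genes differed in length and base composition. The 11 up-regulated genes had deposited lengths of 3446 to 12325 bases (median 5697) and a GC content of the longest transcript of 38.1% to 47.7%. The 9 down-regulated genes had lengths of 733 to 3509 bases (median 2210) and a GC content of 51.8% to 69.2%, so that the GC contents of the 2 sets did not overlap. Across the 31 genes the log2 fold change had a Spearman correlation of 0.70 with length and -0.84 with GC content, and across 15902 tested genes 0.45 and -0.57, as a description in which all points share the same 6 libraries. All genes were also split into 4 equal parts by length and 4 by GC content. In the cell of the longest and most AT-rich genes, which holds OCLN, PALS1, PARD6B, DSG2 and DSC2, the median log2 fold change of 1378 genes was 2.54. In that of the shortest and most GC-rich genes, which holds CLDN3, CLDN7 and CRB3, the median of 1231 genes was -1.98. CLDN1 (6.31) shared its cell with 1107 genes of median 1.71, F11R (-0.73) with 1154 genes of median 2.06, and CLDN15 (0.08) with 1192 genes of median -1.41.

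Genes of the same structures outside the 31 were taken from a list of 49. Of 17 tested tight junction genes, 8 were up-regulated and 1 was down-regulated (47.1% and 5.88%, beside 28.6% and 17.6% of all genes tested). MPDZ, a multi-PDZ scaffold like PATJ, had no count in parental libraries and 7.36, 7.94 and 4.52 CPM in mutant libraries, at least 30.3-fold higher (against a floor of 3 counts per library). JAM3, of the family of F11R, had a log2 fold change of 3.91, AMOT 3.12, AMOTL1 2.69 and CXADR, the coxsackievirus and adenovirus receptor, 2.67, while CLDN9 had -2.76. With the offsets the values of JAM3, AMOT, AMOTL1, CXADR and CLDN9 were 3.29, 2.69, 1.19, 0.60 and -0.51. MPDZ stayed past 3-fold, by an amount that no parental count sets. CLDN5 (3.44, at most 13.9 counts in any library), JAM2 (2.14), AMOTL2 (1.70) and ILDR2 (-1.93) also passed the thresholds with the offsets. A total of 6 claudins (CLDN8, CLDN10, CLDN17, CLDN19, CLDN24 and CLDN25) had no count in any library. Of 11 tested polarity genes, 4 were up-regulated and 3 down-regulated (36.4% and 27.3%, not far from the shares of all genes). Log2 fold changes were 6.39 for LIN7A (overlapped by ACSS3 on the opposite strand), 2.75 for PARD3B, 2.74 for PRKCI, -3.55 for PARD6A, -2.33 for SCRIB and -1.96 for PRKCZ. With the offsets they were 4.24, 1.16, 0.88, -1.23, -1.43 and -0.44, so that of these 6 genes LIN7A alone stayed past 3-fold. Of 3 tested desmosome genes, 1 was up-regulated and 0 were down-regulated (33.3% and 0%, beside the same shares of all genes). It was DSC3 (0.550 against 1.91 CPM, log2 fold change 1.78, which turned to -0.60 with the offsets). PERP, far more abundant (means of 664.9 and 856.5 CPM), and PKP1 were not called. Their log2 fold changes were 0.37 and -0.93, and -1.19 and 0.28 with the offsets. DSG1 and DSC1, of stratified epithelia, had at most 3 counts in every library.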

How the data were processed

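RNA was extracted with Trizol and libraries were made with an Illumina TruSeq kit from total RNA, per the labels. SeqPrep and Sickle trimmed the paired-end reads, according to the methods. The submitters' processing notes name HISAT2 2.1.0, RSEM 1.3.1, DESeq2 1.24.0 and the build hg18, without their roles. What the authors deposited is 1 table of expected counts (estimated, without normalization) by Ensembl gene and library, 6 libraries in all, and a length for each gene. The design assumed counts that might need rounding, and the estimated counts were rounded to whole numbers for the tests.

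Genes were filtered with filterByExpr (minimum count 10, minimum total 15), scaled with TMM and compared with edgeR 4.0.16 in R 4.3.3 (quasi-likelihood F test, no covariate, Benjamini-Hochberg adjustment over 16059 genes). Calls used the thresholds of the study's methods, 3-fold and an adjusted p below 0.01. The SE is the absolute log2 fold change divided by the square root of F. TPM was computed from the deposited counts and lengths. The offsets came from robust splines (5 degrees of freedom) of each library's log counts on length and GC content. Symbols, positions and GC content came from GENCODE release 44 lifted to GRCh37, matched on the Ensembl ID for 56745 of 58884 genes (GC content for 15902 of 16059 tested). Promoter windows from RefSeq on GRCh38.p14 were used for 20 of the 31 genes, with the outermost start where a gene had several. Windows on chromosome 8, where CLDN23 lies, were left out for the members. The build behind the counts is not known beyond the notes, so positions are those of the annotation. The replicates of a group were not copies of one library, with a chi-square per degree of freedom of 4.35 to 37.3 between their counts.

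All 31 members are named. The rule gave values per library for members past the thresholds and for those of highest parental TPM in their class, and named from each other pathway list the called genes, at most 6 by size. Values per library of CLDN15, F11R, CGN, PARD3, JUP, PPL, EVPL and EPCAM, the gene pairs and the named markers were added after values were seen. So were, outside the list, the named desmosome genes and CLDN5, JAM2, AMOTL2 and ILDR2. The members and lists were chosen with earlier results of these data known. The alternatives were DESeq2 1.42.0, library totals, other filters on low counts, other fold thresholds, a test against a fold change of 3, the replicate number as a block, the offsets, and each library left out in turn. The code was tested on simulated data. The result of 1 further marker list is not reported here. Figures were drawn with matplotlib 3.10.9.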

Additional observations from a re-analysis of the deposited data

How the results depend on the processing

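Of the 31 genes, 18 kept their direction under every alternative that tested them, which for CLDN1 leaves out the filter of at least 10 counts in every library. With each library left out in turn, 10 to 12 genes were up-regulated and 9 down-regulated. PKP2 was lost without parental replicate 1 (log2 fold change 1.52) and PARD3 passed without parental replicate 3 (1.66). The log2 fold change of CLDN15 lay between -0.03 and 0.23 with a library left out and was -0.04 with DESeq2, and it passed only in the fits with offsets (1.73). DESeq2, no filter on low counts and a fold threshold of 2 gave 11 or 12 up-regulated and 9 or 10 down-regulated genes. The test against a fold change of 3 gave 9 and 7, losing CLDN4, OCLN, MARVELD3 and PKP2. With at least 10 counts in every library CLDN1 dropped out of the test, CLDN4 (-1.56) was lost and PARD3 (1.64) passed, which left 3 up-regulated genes in the tight junction class. Without a fold threshold 13 genes were higher and 15 lower (3 lower in the desmosome class).

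With library totals alone, 2 genes were down-regulated, 1 of the tight junction, 0 of the polarity and 1 of the desmosome class, and the log2 fold change turned to 0.12 for CLDN2, 0.19 for F11R, 0.63 for CGN, 0.41 for JUP, 0.36 for PPL and 0.07 for EPCAM. With length and GC offsets, 2 genes were up- and 1 down-regulated, all of the tight junction class, and 0 of the polarity and desmosome classes in either direction. The log2 fold change turned to 0.39 for CLDN23, -0.17 for OCLN, -0.62 for MARVELD2, 0.02 for LSR, 0.08 for CRB3, -0.51 for DSC2 and 0.81 for JUP. The offsets act on length and GC content by construction, and what lies behind that relation was not tested.

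The replicate number as a block gave 11 up- and 9 down-regulated genes, with default or robust moderation, and changed no call. Same-numbered libraries correlated in their deviations from the group means at -0.136, 0.119 and -0.045, and libraries of different number at -0.175 to 0.234. The numbers thus showed no sign of pairing, which deviations within groups of 3 libraries cannot exclude. The block with the offsets gave 2 up- and 1 down-regulated genes, again of the tight junction class (2 and 1), with 0 in the others, and the turned values were 0.41 for CLDN23, -0.09 for OCLN, -0.63 for MARVELD2, 0.02 for LSR, 0.08 for CRB3, -0.51 for DSC2 and 0.81 for JUP. Depth limits the fold change of CLDN1, whose parental counts were 3 to 11.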
